A study of Homo sapiens with 14 samples.

Results

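The region described here is a 4-Mb stretch of the long arm of chromosome 1 (chr1:185000000-189000000, hg38) that holds PTGS2 and PLA2G4A, with the GATA1 peaks whose summits lie in it. Peaks were taken from both deposited lists by summit position alone, and no measured value of a peak entered the choice. The list labelled shHDAC5 placed 357 of its 249139 peaks there, and the list labelled shControl placed 62 of its 121070. Those 419 peaks are all members, out of 370209 on chromosomes 1 to 22, X and Y. Equal windows directly below and above the segment held 478 and 264 peaks of the list labelled shHDAC5, and 137 and 59 peaks of the list labelled shControl. The segment edges cut through no dense cluster: the nearest summits of the list labelled shHDAC5 lay 5279 bp inside and 4428 bp outside the lower edge, with folds of 2.38 and 1.85.

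GATA1 was immunoprecipitated from PANC-1, a human pancreatic cancer cell line, at day 3. The knockdown arm carried a short hairpin against the histone deacetylase HDAC5 (shHDAC5), and the other arm carried a control hairpin in cells of WT genotype (shControl). Each arm had 2 immunoprecipitations and 2 inputs but only 1 peak list, so no replicate spread exists for any peak and no peak difference was tested. The RNA libraries are labelled as another pancreatic cancer line, BxPC-3, with 3 labelled shHDAC5 and 3 labelled shControl, also at day 3. The delivery of the hairpins and the start of the 3 days were not given in the sources used here.

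PLA2G4A encodes cytosolic phospholipase A2 alpha, which cuts arachidonic acid out of membrane phospholipids. PTGS2 encodes cyclooxygenase 2, the inducible enzyme that turns arachidonic acid into prostaglandin H2, from which prostaglandins and thromboxane are made. The genes lie next to each other and both products act early in the same pathway. GATA1 is a DNA-binding zinc-finger protein that directs red cell and megakaryocyte development, and its usual site is a GATA core flanked by A or T before it and A or G after it.

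The deposited names and the labels of the lists go against each other. Peak names in the list labelled shHDAC5 carry the prefix NC, and those in the list labelled shControl carry the prefix SAHA, which is the name of a histone deacetylase inhibitor. The lists are therefore called by their labels throughout, and every direction between them is between lists as labelled. In RNA, HDAC5 itself stood higher in the libraries labelled shHDAC5, at 162, 161 and 169 CPM (counts scaled to a common library size) against 95.4, 91.7 and 97.7 CPM in the libraries labelled shControl. GATA1 RNA was low in both, at 3.13, 2.35 and 3.07 CPM in the libraries labelled shHDAC5 and 0.451, 0.279 and 0.302 CPM in those labelled shControl. SMAD4 and CDKN2A, which are known to be deleted in BxPC-3, were both present, SMAD4 at 45.9 to 47.4 CPM against 47.6 to 52.5 CPM and CDKN2A at 13.1 to 14.4 CPM against 145 to 155 CPM. Of 6 epithelial markers, KRT19, EPCAM and CDH1 stayed under 3 CPM in every library, while KRT8 ranged from 981 to 1029 CPM in the libraries labelled shHDAC5 and from 706 to 730 CPM in those labelled shControl. KRT18 averaged 327 and 404 CPM in the same groups, and KRT7 25.3 and 371 CPM. The line of the RNA libraries is therefore also given as labelled. Summed levels were at most 0.650 CPM for 4 leukocyte markers and 3.13 to 4.01 against 1.03 to 1.48 CPM for 3 endothelial ones. For 6 fibroblast markers they were 85.7 to 90.9 against 120.8 to 130.6 CPM. Of these, COL1A1 averaged 79.6 and 92.3 CPM in the libraries labelled shHDAC5 and shControl, and PDGFRB 6.59 and 29.6 CPM. In the same order DCN averaged 0.632 and 2.35 CPM, COL3A1 1.51 and 0.915 CPM and COL1A2 0.0579 and 0 CPM, with LUM at 0 throughout. The erythroid gene HBB had 5.85, 4.01 and 5.53 CPM in the libraries labelled shHDAC5 and 0 in those labelled shControl. In the same groups HBA1 averaged 0.725 and 0.128 CPM, and KLF1 0.444 and 0.0429 CPM. The part of these markers in the RNA results was not tested. The libraries held between 15935649 and 16889876 counts in the group labelled shHDAC5 and between 15179758 and 17854340 in the group labelled shControl.

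The 250 bases upstream of 4 genes of the segment are shown because they place the promoter peaks. They are PTGS2 and PLA2G4A themselves, TPR, whose promoter lay under a peak of the list labelled shHDAC5, and IVNS1ABP, whose promoter lay under a peak of the list labelled shControl. Each sequence was taken from RefSeq (GRCh38.p14) and runs 5′ to 3′ on the strand of its gene up to the base before the transcription start, with capitals for the bases that a peak of either list covered. PTGS2 is on the minus strand (chr1:186680424-186680673), and its 34 capitals lay under a peak of the list labelled shHDAC5. PLA2G4A is on the plus strand (chr1:186828699-186828948) and has no capitals. TPR is on the minus strand (chr1:186375254-186375503), and its 88 capitals lay under a peak of the list labelled shHDAC5. IVNS1ABP is on the minus strand (chr1:185317244-185317493), and its 87 capitals lay under a peak of the list labelled shControl.
PTGS2: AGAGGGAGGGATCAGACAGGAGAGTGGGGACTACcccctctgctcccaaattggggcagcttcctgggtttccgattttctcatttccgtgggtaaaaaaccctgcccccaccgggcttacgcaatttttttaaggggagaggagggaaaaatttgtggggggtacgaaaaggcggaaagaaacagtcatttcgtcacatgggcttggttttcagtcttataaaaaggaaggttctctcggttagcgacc
PLA2G4A: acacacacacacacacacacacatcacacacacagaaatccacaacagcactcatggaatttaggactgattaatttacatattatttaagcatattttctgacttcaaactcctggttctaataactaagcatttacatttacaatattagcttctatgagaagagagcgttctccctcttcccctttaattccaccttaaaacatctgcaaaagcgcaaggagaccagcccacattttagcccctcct
TPR: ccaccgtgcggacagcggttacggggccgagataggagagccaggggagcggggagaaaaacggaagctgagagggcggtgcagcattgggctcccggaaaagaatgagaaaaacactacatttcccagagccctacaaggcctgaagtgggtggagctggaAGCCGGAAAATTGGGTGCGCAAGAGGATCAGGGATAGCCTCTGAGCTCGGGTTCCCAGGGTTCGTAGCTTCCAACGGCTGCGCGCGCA
IVNS1ABP: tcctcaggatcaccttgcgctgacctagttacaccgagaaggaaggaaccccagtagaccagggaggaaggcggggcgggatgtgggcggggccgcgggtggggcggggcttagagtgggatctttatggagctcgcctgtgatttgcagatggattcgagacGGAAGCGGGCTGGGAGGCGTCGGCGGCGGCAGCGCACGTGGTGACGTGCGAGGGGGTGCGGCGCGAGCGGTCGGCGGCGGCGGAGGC

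The GATA site was searched as AGATAA and as AGATAG, and with T in first place as TGATAA and as TGATAG, along with the bare core GATA that they share, on both strands of the RefSeq windows from 250 bases before to 50 bases after each transcription start. PTGS2 and IVNS1ABP held neither a full site nor a core. PLA2G4A held the core once, 7 bases into the transcript and outside the stretch shown. TPR held AGATAG at position -221, outside its peak, and a bare core at position -56, inside the peak, both counted from the transcription start. A full site occurred in 24.97% of the 35116 windows of all genes and in 30.4% of the 23 windows of the segment, and the bare core in 49.7% and 82.6% of them. The 23 windows belong to 19 genes and several overlap, so some bases were counted more than once. The difference in these shares was not tested.

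At PTGS2, a small peak of the list labelled shHDAC5 sat just upstream of the gene, and the list labelled shControl had none within 10 kb. The gene spans chr1:186671791-186680423 on the minus strand, so its start is at the upper end. The upstream peak (chr1:186680640-186681034) had its summit 220 bp before the transcription start, and its lower end covers the bases in capitals of the PTGS2 sequence above. Its deposited fold over the local background was 1.86, with a −log10 p of 1.59 and a −log10 q of 0. Folds, p and q values here are the authors' own for each peak, and a −log10 q of 0 means that the peak did not stand out once all positions were corrected for. A pileup of 5 reads at the summit gives exactly this fold and p. The same peak covered the start of PACERR, a long noncoding RNA gene read in the opposite direction, whose start lies 231 bp from that of PTGS2. A further peak of that list (chr1:186665803-186666278, fold 2.14, 4 reads, −log10 q of 0) lay beyond the 3′ end. No summit of either list fell within the gene. The nearest peak of the list labelled shControl (chr1:186656231-186656488, fold 2.95) was 15.3 kb from PTGS2, with a −log10 q of 0. Another, with its summit 34.0 kb away (chr1:186637680-186637976), had the second highest fold of that list in the segment, 4.09 from 17 reads, and a −log10 q of 1.87.

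Over PLA2G4A, the list labelled shHDAC5 had 26 peaks inside the gene and the list labelled shControl had none. The gene spans 160 kb (chr1:186828949-186988981) on the plus strand. The density was 16.2 peaks per 100 kb in the list labelled shHDAC5 (95% exact Poisson interval 10.6 to 23.8, counting error only). A count of 0 in the list labelled shControl allows up to 1.87 peaks per 100 kb, taking 3 peaks as the limit. The density of that list over the whole segment, 15.5 peaks per Mb, lies below this limit. The peaks were spread along the whole gene, with 7, 4, 10 and 5 summits in its 4 equal stretches from the 5′ to the 3′ end. A peak upstream (chr1:186825569-186825826, fold 2.14, 4 reads) had its summit 3.19 kb from the start, and a peak downstream (chr1:186994103-186994537, fold 3.23, 7 reads) lay within 10 kb of the 3′ end, which makes 28 in all. The first summit inside the gene was 1.21 kb from the start (chr1:186829720-186830781, fold 1.88), and the bases printed above for PLA2G4A lay under none of them.

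Each of the 26 peaks rested on few reads. Their folds ran from 1.71 to 3.29 with a median of 2.55, their summits held 3 to 7 reads with a median of 5, and the highest −log10 q was 0.314. At a −log10 p of at least 2, 17 remained, and at 3, 5 remained. The highest fold inside the gene belonged to chr1:186840623-186840894, 11.8 kb from the start, with a −log10 p of 3.91 from 7 reads. Next came chr1:186870569-186871121 with a fold of 3.09, also from 7 reads, 42.0 kb from the start. Near the middle, 6 summits fell between 82.0 and 91.4 kb from the start with folds from 2.14 to 2.99. The nearest peak of the list labelled shControl lay 84.9 kb beyond the 3′ end (chr1:187073902-187074372). It had the highest fold of that list in the segment, 4.22, with 18 reads and a −log10 q of 1.80. A peak of the list labelled shHDAC5 with a fold of 2.56 and 5 reads overlapped it.

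**Figure D1:**
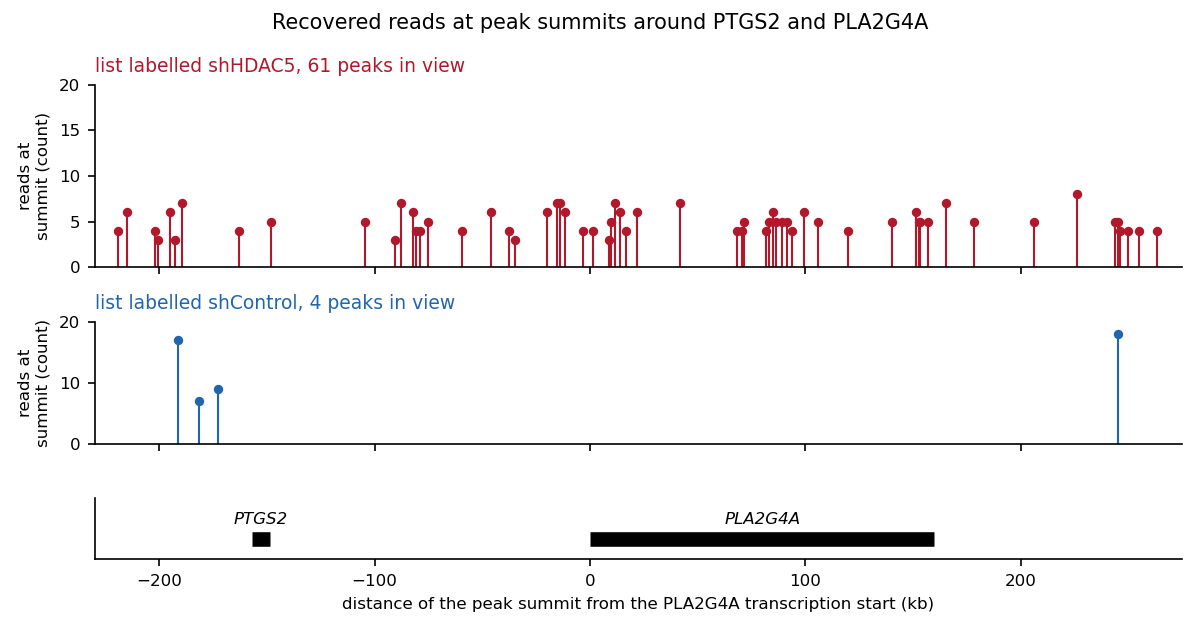
Reads at the summits of the peaks around PTGS2 and PLA2G4A, recovered from the deposited fold and p (vertical axis, read count), against distance from the PLA2G4A transcription start (horizontal axis, kb), for the list labelled shHDAC5 (top) and the list labelled shControl (middle), with both genes as bars. The 26 peaks over PLA2G4A reach 3 to 7 reads each in the list labelled shHDAC5, while the list labelled shControl is empty between its summits of 9 and 18 reads on either side.

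PLA2G4A was ranked among the 3356 protein-coding genes of at least 100 kb in the reference, itself included. Its density in the list labelled shHDAC5 was above that of 97.0% of them, and the median was 8.37 peaks per 100 kb. In the list labelled shControl, the median was 1.93 per 100 kb, and 323 genes (9.62%) had no peak, as PLA2G4A did. With no peak in the list labelled shControl and at least 26 in the list labelled shHDAC5, it was 1 of 6 genes, together with GPC3, ARHGAP24, PRLR, CALD1 and FTO. These ranks are a description within each list. The count of 6 genes takes its limit from PLA2G4A itself and is one of peaks per gene, so it moves with gene length.

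The stretch between the genes was also covered by the list labelled shHDAC5 alone. It is 149 kb long and held 17 peaks of that list, 11.4 per 100 kb, with folds up to 3.42, and no peak of the list labelled shControl. Both genes and the stretch between them fell into the longest interval of the segment with no summit of the list labelled shControl, 418 kb from chr1:186656392 to chr1:187074131. Within that interval lay 49 summits of the list labelled shHDAC5. Of the 121046 intervals between neighbouring summits in the whole list labelled shControl, 308 (0.254%) were at least as long, 16 of them on chromosome 1, and together they spanned 356 Mb. The median interval of that list was 39578 bp in the segment and 5174 bp in the whole list. In the list labelled shHDAC5 it was 6802.5 bp and 7051 bp. The next longest empty interval of the list labelled shControl, 329.7 kb, held PRG4, TPR, ODR4 and PDC together with 29 summits of the list labelled shHDAC5. The longest interval with no summit of the list labelled shHDAC5 was 70.2 kb and held no coding gene.

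**Figure D2:**
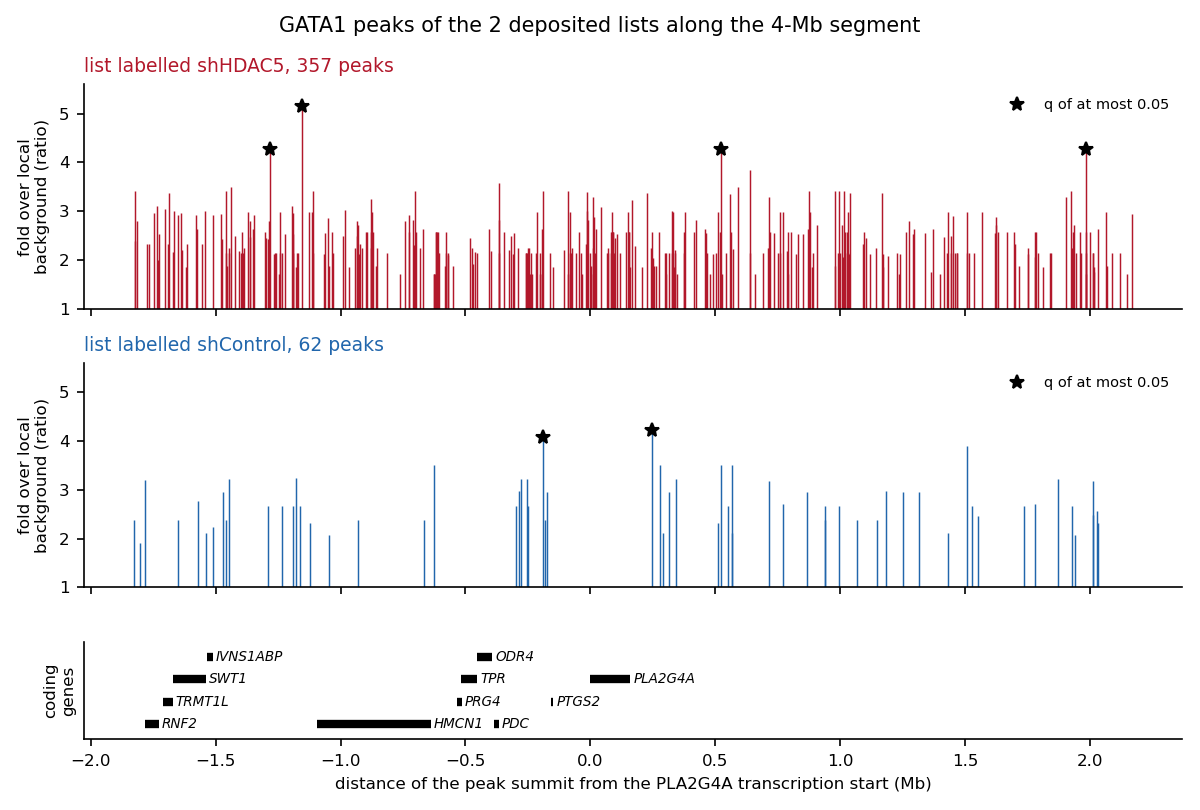
Fold over the local background (vertical axis, ratio) of each peak against the distance of its summit from the PLA2G4A start (horizontal axis, Mb), for the list labelled shHDAC5 (top, 357 peaks) and the list labelled shControl (middle, 62 peaks), with the 11 protein-coding genes as bars. Stars mark the 4 and 2 peaks with a q of at most 0.05, and the list labelled shControl shows an empty stretch over PTGS2 and PLA2G4A.

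Across the segment, the list labelled shHDAC5 had 89.2 peaks per Mb (80.2 to 99.0) and the list labelled shControl 15.5 per Mb (11.9 to 19.9), with 95% exact Poisson intervals. In the lower window the densities were 119.5 per Mb in the list labelled shHDAC5 and 34.2 per Mb in the list labelled shControl. The upper window had 66.0 and 14.8 per Mb. Relative to the mean of both windows, the segment's density was 0.962 (0.846 to 1.09) in the list labelled shHDAC5 and 0.633 (0.468 to 0.846) in the list labelled shControl. The value depended on the side chosen: against the lower window alone it was 0.747 and 0.453, and against the upper window alone 1.35 and 1.05. The count of the list labelled shHDAC5 was 5.76 times that of the list labelled shControl in the segment (4.39 to 7.67). The same ratio was 3.49 (2.88 to 4.25) in the lower window, 4.47 (3.36 to 6.04) in the upper window and 2.06 over the whole lists. It was 5.37 among peaks with a −log10 p of at least 2, 4.61 at 3 or more, and 2 (0.287 to 22.1) among the 4 and 2 peaks with a q of at most 0.05.

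Equal windows across the genome put the segment in context. Among 742 windows, its count in the list labelled shHDAC5 was above that of 56.1%, with a median of 345. Its count in the list labelled shControl was above that of 30.3%, with a median of 87. The ratio of both counts was above that of 78.2% of the 721 windows that gave one, with a median of 3.81. In bins of 0.25 Mb, the list labelled shHDAC5 ranged from 13 to 38 peaks within the segment, with a median of 23.5, and the bin with 38 held PLA2G4A. The list labelled shControl ranged from 0 to 8, with a median of 4, and the bin with PLA2G4A was 1 of its 2 empty bins out of 16. In the lower window the bins of the list labelled shHDAC5 reached 45 and those of the list labelled shControl 23.

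**Figure D3:**
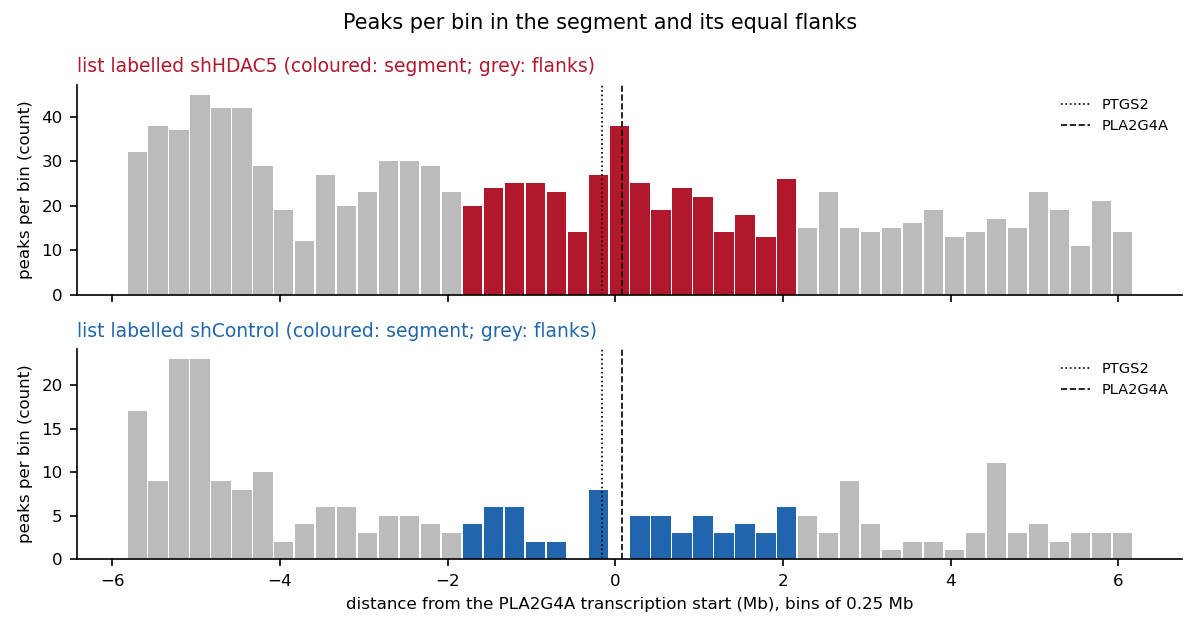
Peaks per bin of 0.25 Mb (vertical axis, count) along the segment (coloured) and its equal windows (grey), against distance from the PLA2G4A start (horizontal axis, Mb), for the list labelled shHDAC5 (top) and the list labelled shControl (bottom). The bin with PLA2G4A holds 38 peaks in the list labelled shHDAC5 and 0 in the list labelled shControl.

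Few members passed the authors' own correction. With a q of at most 0.05, 4 of 357 peaks of the list labelled shHDAC5 passed, where 0.419% of that whole list did. In the list labelled shControl 2 of 62 passed, where 5.10% of the whole list did. The strongest member of the list labelled shHDAC5 (chr1:185676348-185676738) had a fold of 5.15, a −log10 p of 8.34 and a −log10 q of 3.54 from 13 reads, inside the noncoding gene LOC107985239 and 57.9 kb from HMCN1. The other 3 each had a fold of 4.27, a −log10 q of 1.32 and 9 reads. They were chr1:185545776-185546190 in LOC107985239, chr1:187349449-187349960 in LINC01036 and chr1:188813910-188814212 outside any annotated gene. The fifth highest fold, 3.85 at chr1:187466169-187466561 in LINC01037, came from 8 reads with a −log10 q of 0.725. In the list labelled shControl, after the 2 peaks that flank PTGS2 and PLA2G4A, the highest folds were 3.89 (chr1:188337049-188337489, 13 reads), 3.51 (chr1:186202438-186202710, 11 reads) and 3.51 (chr1:187349294-187349741, 11 reads). Their −log10 q values were 1.13, 0.733 and 0.733.

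The reads behind the peaks differed between the lists. The deposited fold and p of every member fitted a whole number of reads at the summit, under the peak caller's own formula, with an error on −log10 p below 0.001. A read counted as 1 in the list labelled shHDAC5 and as 0.663 in the list labelled shControl, so the reads of the list labelled shControl were scaled down. Summits held 3 to 13 reads with a median of 5 in the list labelled shHDAC5, and 6 to 19 reads with a median of 9 in the list labelled shControl. These medians were the same in both equal windows and in the whole lists. The background was at its lowest possible value, 1.34 and 1.36 on the caller's scale, for 49.3% and 59.7% of the members. Because reads are whole and the background often sits at that floor, folds repeat: 77 of the 357 peaks of the list labelled shHDAC5 had a fold of 2.14, the value of 4 reads over the floor, and 11 of the 62 of the list labelled shControl had 2.67.

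**Figure D4:**
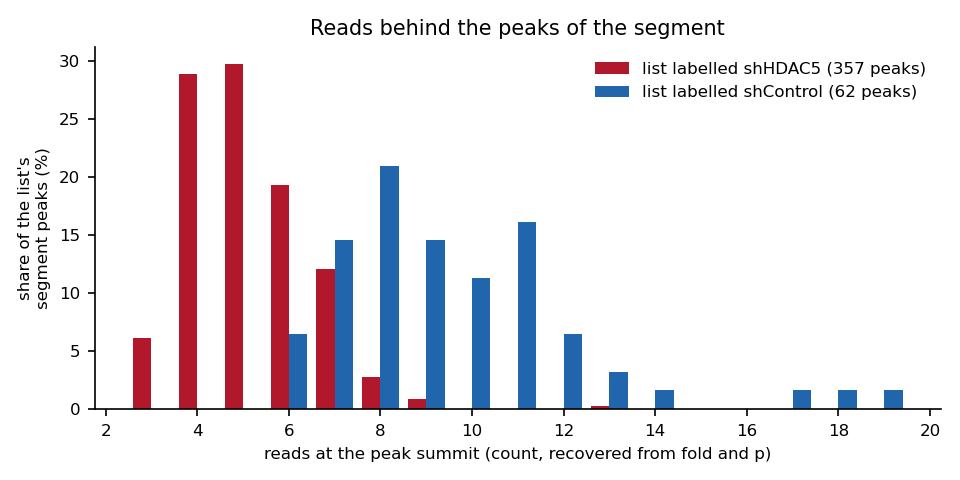
Share of each list's peaks in the segment (vertical axis, %) by the number of reads at the summit (horizontal axis, count), for the list labelled shHDAC5 and the list labelled shControl. The median is 5 reads in the list labelled shHDAC5 and 9 in the list labelled shControl.

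In the segment, 11 peaks of the list labelled shHDAC5, 3.08% (95% exact binomial interval 1.55 to 5.45), overlapped a peak of the list labelled shControl by at least 1 bp. They matched 11 peaks, 17.7% (9.20 to 29.5), of the list labelled shControl. Peaks of the list labelled shControl covered 0.531% of the bases of the segment, and those of the list labelled shHDAC5 covered 3.29%. The whole lists shared 5.54% and 11.6%. In the lower window the shares were 3.56% and 12.4%, and in the upper window 3.41% and 16.9%. The pairs overlapped by 4 to 441 bp, and their summits lay 1 to 818 bp apart. The fold was higher in the list labelled shHDAC5 in 4 pairs and in the list labelled shControl in 7.

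None of the shared positions had a q of at most 0.05 in both lists. The pair inside LINC01036 had −log10 q values of 1.32 in the list labelled shHDAC5 and 0.733 in the list labelled shControl. The pair inside LINC01036 had folds of 4.27 and 3.51, in the list labelled shHDAC5 and the list labelled shControl in that order here and below. At IVNS1ABP the folds were 2.93 and 2.24, where the peak of the list labelled shControl (chr1:185316770-185317330) covered the transcription start and that of the list labelled shHDAC5 (chr1:185316653-185316992) ended inside the gene. The pair in CBSLR had folds of 3.42 and 2.39, and the pair at chr1:187597717-187598012 had 2.99 and 2.72 with summits 1 bp apart. Pairs in the noncoding genes LOC107985239 and LOC105371656 had folds of 2.54 and 2.67, and of 2.25 and 3.19. The pair 85.1 kb beyond PLA2G4A had 2.56 and 4.22. The other 4 pairs lay outside annotated genes, with folds from 1.71 to 2.25 in the list labelled shHDAC5 and from 2.48 to 3.89 in the list labelled shControl.

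Protein-coding genes cover 25.8% of the segment. They held 90 of 357 summits of the list labelled shHDAC5, 25.2% (20.8 to 30.05), and 7 of 62 of the list labelled shControl, 11.3% (4.66 to 21.9). Noncoding genes alone cover 18.8% and held 19.3% and 24.2%. HMCN1, the longest coding gene here at 457 kb, had 36 and 3 peaks, or 7.89 and 0.657 per 100 kb. SWT1 had 11 and 2, RNF2 5 and 1, TRMT1L 3 and 0, and IVNS1ABP 1 and 1. TPR had 5 and 0, ODR4 2 and 0, PDC 1 and 0, and PRG4 none in either list. Of the noncoding genes, LINC01036 had 27 and 6 and LOC107985239 had 22 and 5. A peak of the list labelled shHDAC5 touched the promoter window of TPR, PDC, PTGS2 and PACERR, 4 of 23 windows, where 7.67% of all windows were touched. The windows of PTGS2 and PACERR overlap and were touched by the same peak. The list labelled shControl touched 2, those of IVNS1ABP and CBSLR, where 19.9% of all windows were. These windows also overlap and share 1 peak. The TPR peak (chr1:186374962-186375341) and the PDC peak (chr1:186461007-186461291) both had a fold of 2.14 from 4 reads.

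RNA of the same genes was read from the libraries labelled BxPC-3, while the peak lists are labelled PANC-1. PLA2G4A had 54.2, 48.3 and 52.6 CPM in the libraries labelled shHDAC5, against 24.3, 22.3 and 27.2 CPM in those labelled shControl. All libraries labelled shHDAC5 were above all those labelled shControl. On the log2 scale the difference was 1.06 ± 0.0632 (standard error; adjusted p = 7.01e-31). Here and below, the test is the quasi-likelihood test of edgeR, with p adjusted by Benjamini-Hochberg over all genes tested. PTGS2 was much lower, at 2.19, 3.49 and 3.30 CPM in the libraries labelled shHDAC5 and 3.22, 2.80 and 4.10 CPM in those labelled shControl. The groups overlapped, and the log2 difference of -0.18 ± 0.21 (standard error) did not pass the test (edgeR, adjusted p = 0.415). Its sign turned under scaling by total counts alone. Per kilobase of gene length, PLA2G4A stood at 18.0 CPM and PTGS2 at 0.546 CPM in the libraries labelled shHDAC5, and at 8.55 and 0.615 CPM in those labelled shControl.

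Of the 11 coding genes of the segment, 10 passed the filter on low counts. Of these, 4 were higher, where 44.8% of the 19181 genes tested were, 3 were lower, where 39.9% were, and 3 did not pass the test. In 7 of 10 the libraries did not overlap between the groups, where 84.8% of all tested genes did not. The median log2 fold change was -0.01 over the 10, against 0.09 over all genes tested. Scaling by upper quartile or by total counts moved the median of all genes to 0.23 and 0.27 and the calls in the segment to 5 higher and 2 lower, and size factors gave 5 and 3.

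HMCN1, which encodes the extracellular matrix protein hemicentin 1, differed the most among the coding genes. It had 14.5, 15.9 and 16.5 CPM in the libraries labelled shHDAC5, against 0.965, 1.47 and 1.09 CPM in those labelled shControl. Its log2 fold change was 3.74 ± 0.17 (standard error; edgeR, adjusted p = 1.25e-40), and the groups lay far apart. SWT1, named after a yeast RNA endonuclease, had 11.6, 11.6 and 11.0 CPM against 5.02, 4.19 and 5.43 CPM, a log2 fold change of 1.22. TRMT1L, a relative of a tRNA methyltransferase, had 54.8, 52.3 and 57.9 CPM against 32.0, 30.9 and 31.3 CPM, a log2 fold change of 0.81. Both rose without overlap between the groups (edgeR, adjusted p = 6.01e-15 and 1.96e-25).

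IVNS1ABP, a kelch-repeat protein that binds an influenza virus protein, fell. It had 73.2, 77.6 and 74.7 CPM in the libraries labelled shHDAC5, against 169.8, 182 and 181 CPM in those labelled shControl, a log2 fold change of -1.24 ± 0.037 (standard error; edgeR, adjusted p = 1.86e-56). RNF2, the ubiquitin ligase of Polycomb repressive complex 1, had 13.6, 11.3 and 12.5 CPM against 21.6, 23.1 and 19.6 CPM. Its log2 fold change was -0.78 ± 0.091 (standard error; edgeR, adjusted p = 2.24e-13), with no overlap between the groups. TPR, a protein of the nuclear pore basket, had 292, 307 and 300.1 CPM against 339, 326 and 333 CPM. Its small log2 difference of -0.15 passed the test (edgeR, adjusted p = 5.60e-07) but not under upper-quartile scaling, and it changed sign under total counts alone.

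ODR4, known in worms for the trafficking of odorant receptors, had 36.4, 36.1 and 38.5 CPM in the libraries labelled shHDAC5 and 32.1, 37.8 and 32.6 CPM in those labelled shControl. PRG4, which encodes the joint lubricant lubricin, had 4.02, 4.35 and 4.70 CPM and 5.28, 4.12 and 5.01 CPM in the same groups. The groups overlapped in both genes, with log2 differences of 0.12 and -0.14 (edgeR, adjusted p = 0.0713 and 0.416). The difference for ODR4 passed the test under 3 other scalings, and that for PRG4 changed sign under total counts alone. PDC, which encodes phosducin of photoreceptor cells, did not pass the filter, with 7, 0 and 3 counts against 4, 4 and 6.

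Noncoding genes of the segment were named after their values were seen. Of 16 in the reference, 6 were matched by name in the count table and 3 passed the filter. Each of the 3 reached the count minimum in all libraries of its higher group alone. The filter thus favoured a difference, and no p is given for them. LINC01036, which begins 104 kb beyond PLA2G4A and holds a peak pair with folds of 4.27 and 3.51, had 37, 38 and 54 counts in the libraries labelled shHDAC5 and none in any library labelled shControl. Taking 3 counts over the group as the limit, it was at least 38.2-fold higher. PACERR, which is read from the other strand just upstream of PTGS2 under the same promoter peak, had 2, 1 and 2 counts against 45, 39 and 51, with no overlap between the groups. The log2 fold change of PACERR was -4.82 ± 0.44 (standard error). Whether counting used the strand was not given in the sources used here. Reads of PACERR and PTGS2 may therefore not be told apart, and the length used by the counter for PACERR, 2.54 kb, exceeds its RefSeq span of 0.793 kb. PDC-AS1 had 12, 22 and 15 counts against 8, 5 and 11, a log2 fold change of 0.85.

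**Figure D5:**
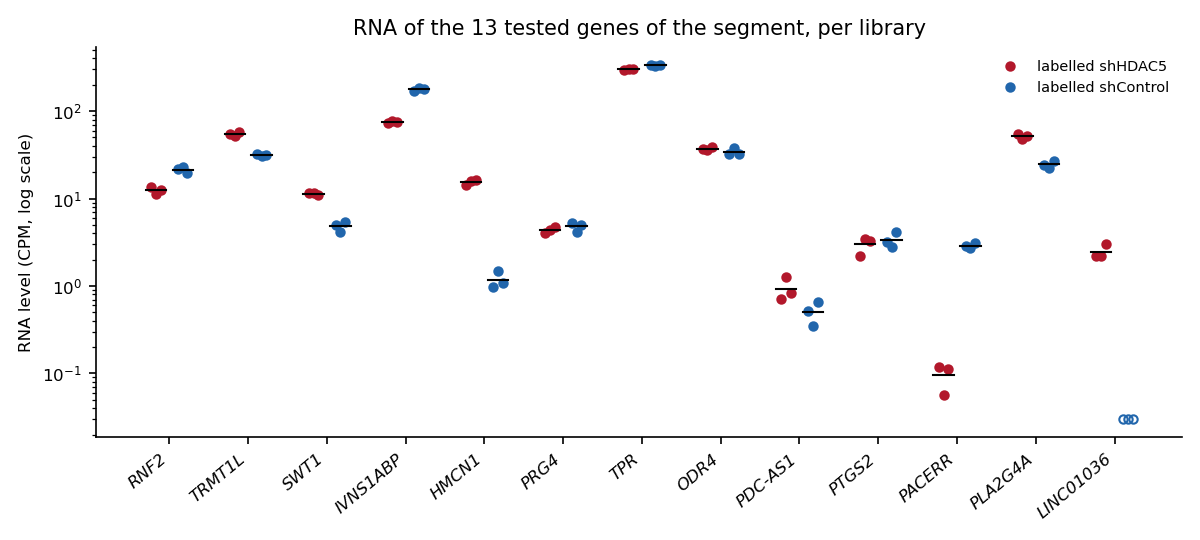
RNA level in CPM (vertical axis, log scale) of the 13 tested genes of the segment in chromosome order, with a point for each library labelled shHDAC5 (left of each pair) and shControl (right) and a bar at each mean. Open circles at the bottom mark the libraries with no count of LINC01036. PLA2G4A and HMCN1 are higher in the libraries labelled shHDAC5 with no overlap, where 84.8% of all tested genes did not overlap, while the groups overlap for PTGS2. PACERR is lower in the libraries labelled shHDAC5, but it passed the filter through the libraries labelled shControl alone.

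The other enzymes, transporters and receptors of prostaglandins lie outside the segment. Of 17 listed, 12 were tested, and 7 of these were higher and 5 lower in the libraries labelled shHDAC5, where 44.8% and 39.9% of all genes were. The filter had let in 4 of the 7 higher members, TBXAS1, HPGD, PTGER1 and PTGER2, through the libraries labelled shHDAC5 alone. The other 8 tested members were 3 higher and 5 lower. The median log2 fold change was 0.31 over the 12, against 0.09 over all genes tested, and both include genes let in through 1 group alone. The median over the 8 was -0.86, and no median of all genes with the same limit was taken to set beside it. The named members are those with the smallest adjusted p in each direction. PTGER4, a receptor for prostaglandin E2, had 33.9, 34.1 and 34.3 CPM against 4.12, 6.36 and 6.70 CPM. PTGER2, another receptor for prostaglandin E2, had 3.72, 4.18 and 3.13 CPM against 0.193, 0.210 and 0.362 CPM. PTGER4 rose, with a log2 fold change of 2.57 (edgeR, adjusted p = 1.55e-46), and that of PTGER2 was 3.79, given without a p because of the filter. PTGS1, which encodes the constitutive cyclooxygenase 1, had 379, 363 and 378 CPM against 1051, 1025 and 1065 CPM, a log2 fold change of -1.49 (edgeR, adjusted p = 1.03e-80). Per kilobase, PTGS1 stood at 64.6 CPM in the libraries labelled shHDAC5 and 181 CPM in those labelled shControl, far above PTGS2 in both. PTGES3, a prostaglandin E synthase that is also the co-chaperone p23, fell to 222, 230.3 and 230.4 CPM against 395, 403 and 407 CPM (edgeR, adjusted p = 1.69e-51).

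The peak counts and the RNA changes of the coding genes can be set side by side but not tested against each other, since they are labelled as different cell lines. Among the 4 genes that were higher, PLA2G4A had 26 peaks in the list labelled shHDAC5 and 0 in the list labelled shControl, HMCN1 36 and 3, SWT1 11 and 2, and TRMT1L 3 and 0. Among the 3 that were lower, RNF2 had 5 and 1, TPR 5 and 0, and IVNS1ABP 1 and 1. The genes with 0 peaks in the list labelled shControl thus include ones that were higher, lower and not called.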

How the data were processed

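GATA1 peaks and RNA were read from the deposited files as labelled. Per the submitters' processing notes, the tools were MACS2 2.2.7.1, deepTools 3.5.0, featureCounts 2.0.1, fastp 0.23.2 and FastQC 0.11.9 on hg38, without roles. Aligner, annotation and any pooling of samples for peak calling were not given in these sources. The authors deposited whole-number read counts per gene, not normalized. Each deposited peak carries the authors' fold over the local background (a ratio), −log10 p and −log10 q. No list or column was pooled or rescaled here.

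Peaks were assigned by summit, and overlap means at least 1 bp. Reads at each summit were recovered by finding the whole number whose MACS2 fold and Poisson p match the deposited values within 0.001; this worked for 99.988% of peaks in the list labelled shHDAC5 and 99.994% in the list labelled shControl, and the recovery was tested on simulated peaks. Intervals are 95% exact ones, cover counting error only and treat peaks as independent of each other. That independence was not tested, and the intervals are too narrow where peaks cluster. No peak was tested, with 1 list per condition.

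Genes passing edgeR's filter were scaled by TMM and tested on group alone with edgeR 4.0.16 (R 4.3.3) over 19181 of 61541 genes, with a threshold of 0.05 on the adjusted p, after a test on simulated counts. CPM use the scaled library sizes. Standard errors were obtained by dividing each log2 fold change by the root of the F statistic. Libraries of a group correlated at 0.992 or more (log2 CPM, prior count 2) and none was identical to another. No source tells whether they were separate cultures, and the p-values therefore cover the spread among these libraries alone, which may be technical. Alternatives used DESeq2 1.42.0, other scalings and filters, the replicate number as a block, each library left out, and other peak thresholds, overlaps and windows. Other steps used scipy 1.17.1, pandas 2.3.3 and matplotlib 3.10.9 under Python 3.11.15.

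Of 61541 gene IDs, 61369 had a symbol, and gene positions and promoter sequences came from RefSeq tables (GRCh38.p14). Named genes are PTGS2, PLA2G4A, each protein-coding gene overlapping the segment, and HDAC5 and GATA1; named peaks are those within 10 kb of PTGS2 or PLA2G4A, the 5 highest folds per list, those with a q of at most 0.05 and each overlapping pair. Noncoding genes were added after their values were seen. The members and lists were chosen with earlier results of these data known. Sequence under the peaks was not analysed here, since no genome was at hand, and the inputs were not analysed here. 1 marker of the erythroid list is not reported here.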

Additional observations from a re-analysis of the deposited data

How the results depend on the processing

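The count of peaks in the segment, 357 and 62 in the lists labelled shHDAC5 and shControl, became 220 and 41 at a −log10 p of at least 2, 83 and 18 at 3, and 4 and 2 at a q of at most 0.05. It did not move when overlap with the segment or distinct intervals were counted. The density relative to the equal windows, 0.962 in the list labelled shHDAC5, became 1.10 at a −log10 p of at least 3, 4 at a q of at most 0.05 (4 peaks over 2), 0.747 against the lower window and 1.35 against the upper one. In the list labelled shControl it was 0.633 and became 0.4 at that q, 0.453 and 1.05 against the lower and upper windows, and 0.296 against the rest of chromosome 1. The 11 peaks shared by both lists became 5 with a reciprocal overlap of at least 50% of each peak, 7 with summits within 200 bp and 6 at a −log10 p of at least 2.

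In RNA, 4 of the 10 tested coding genes of the segment were higher and 3 lower, where 44.8% and 39.9% of all genes tested were. Other scalings gave 5 higher with 2 or 3 lower. When a library was left out, only the call of ODR4 changed, in 1 of 6 fits. The 3 tested noncoding genes passed the filter through 1 group alone, so their calls are not counted here. The replicate numbers did not pair the libraries (correlations of -0.013, 0.0026 and 0.0059), and no coding call changed with the replicate block. For the 10 tested coding genes, 121 of 130 values under alternatives kept direction and call, PLA2G4A staying between 0.98 and 1.25 on the log2 scale. Total counts alone reversed TPR (0.0335), PRG4 (0.0393) and PTGS2 (0.0062), and the last 2 passed under no alternative. TPR also failed under upper-quartile factors, and ODR4 passed under 5 alternatives. A further 9 genes were chosen with earlier results known. Of these, HDAC5, PTGER4, PTGS1 and PTGES3 kept direction and call under all 13 alternatives. GATA1, PTGER2, PACERR, LINC01036 and PDC-AS1 passed the filter through 1 group alone. Because of that filter, their calls under alternatives are no support, and PDC-AS1 lost its call in 7 values.

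Summits held a median of 5 reads in the list labelled shHDAC5 and 9 in the list labelled shControl, and no replicate list shows how many would be called again. The part of the reads and of their scaling in the difference in number between the lists was not tested, and the lists' labels and peak names go against each other.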
